A study of Mus musculus with 11 samples.

Results

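The interferon response genes described here are 51 mouse genes that are known as targets of type I or type II interferon, taken by gene symbol from a table of 54347 genes. The rule is a list of gene symbols and uses no measured value, but the members were chosen with earlier results of these data known. All 51 were found in the table, and all 51 were among the 14915 genes that passed a filter on low counts. They fall into 11 roles, which are used below to order the results.

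Interferons are secreted proteins that bind receptors on the cell surface, where the kinases JAK1, JAK2 and TYK2 phosphorylate STAT proteins. STAT2 and IRF9 are parts of a complex that binds interferon-stimulated response elements in the promoters of target genes, and STAT dimers bind gamma-activated sites. The targets restrict viruses and other intracellular microbes. Haematopoietic stem cells are known to express some of these genes without infection, and interferon given to mice can bring dormant stem cells into the cell cycle.

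RNA was sequenced in bulk from 3 bone marrow populations of C57BL/6NTac mice, all female, for which the labels name no treatment. The populations were long-term haematopoietic stem cells (LT-HSCs) with endomucin (EMCN), a sialomucin, at the surface (EMCN+, mice 1 to 4), LT-HSCs without it (EMCN-, mice 1, 2 and 4) and granulocyte-monocyte progenitors (GMPs, mice 1 to 4), so each library of a population is a separate animal. The EMCN- library of mouse 3 was removed by the submitters for quality. EMCN+ and EMCN- LT-HSCs were compared because endomucin was the marker of the sort, and GMPs served as a more differentiated population from the same animals. No genotype, transgene or agent separates the groups.

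Totals ranged from 3.63 to 11.1 M estimated counts per library (M for 1000000), with 4.39 to 11.1 M in EMCN+ LT-HSCs, 3.63 to 5.65 M in EMCN- LT-HSCs and 6.32 to 9.19 M in GMPs. Levels are given as CPM, counts per M counts after TMM scaling, and 1 count was worth 0.0697 to 0.235 CPM. Defining markers followed the labels. The 9 LT-HSC markers summed to 1219 to 1425 CPM in EMCN+ LT-HSCs, 839 to 973 CPM in EMCN- LT-HSCs and 27.8 to 31.9 CPM in GMPs. The 9 GMP markers summed to 22.5 to 28.1, 21.0 to 31.0 and 15690 to 18920 CPM in the same order. Emcn itself stood at 25.0 to 28.1 CPM in EMCN+ and 12.7 to 16.2 CPM in EMCN- LT-HSCs, and its log2 difference of 0.87 ± 0.27 (SE) did not pass the test (adjusted p = 0.110). Mitochondrial ribosomal RNA took 13.9 to 22.1% of counts in EMCN+ LT-HSCs, 17.3 to 18.7% in EMCN- LT-HSCs and 26.5 to 29.3% in GMPs. Since these are bulk samples, fewer cells that express a gene and less RNA per cell cannot be told apart.

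Some promoters of the set carry the letters that its known regulators bind, and a few are shown because they link the genes by sequence and not by level. Windows from 250 bases before to 50 after the transcription start (RefSeq, GRCm38.p6) were given for 39 of the 51 genes. Both strands were searched for the core of the interferon-stimulated response element, spelled as GAAA, any 2 bases and GAAA again. This core was present in 20 of the 39 genes (51.3%), where a gene counted if any of its windows held it. It was present in 3.99% of 27025 genes with such a window and 52.1% of the 48 other interferon-inducible genes that were tested and had one. Each stretch below is printed 5′ to 3′ on the strand of its gene, with capitals for the bases of the core, which reads TTTC, any 2 bases and TTTC where it lies on the opposite strand. The first 6 belong to genes of very different level in LT-HSCs and GMPs, the next 2 to a pair of neighbouring genes, and the last 2 to genes that did not pass the test between the populations.
Ifit1, chr19:34640765-34640833, plus strand: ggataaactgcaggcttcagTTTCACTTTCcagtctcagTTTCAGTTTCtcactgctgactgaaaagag
Ifit3, chr19:34583353-34583436, plus strand: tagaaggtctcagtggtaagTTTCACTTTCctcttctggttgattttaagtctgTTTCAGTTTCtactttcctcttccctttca
Ifit3b, chr19:34607749-34607832, plus strand: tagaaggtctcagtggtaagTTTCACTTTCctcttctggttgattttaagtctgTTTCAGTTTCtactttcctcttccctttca
Isg15, chr4:156200855-156200916, minus strand: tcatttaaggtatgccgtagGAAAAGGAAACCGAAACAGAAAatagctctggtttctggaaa
Oas3, chr5:120777705-120777754, minus strand: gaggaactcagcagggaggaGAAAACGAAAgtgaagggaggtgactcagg
Rsad2, chr12:26456543-26456592, minus strand: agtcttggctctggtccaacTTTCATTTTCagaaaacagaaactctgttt
Igtp, chr11:58199502-58199551, plus strand: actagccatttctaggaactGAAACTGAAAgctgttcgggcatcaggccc
Irgm2, chr11:58214893-58214942, plus strand: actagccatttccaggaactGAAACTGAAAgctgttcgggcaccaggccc
Bst2, chr8:71537567-71537622, minus strand: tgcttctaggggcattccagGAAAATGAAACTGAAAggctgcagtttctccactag
Gbp3, chr3:142559979-142560034, plus strand: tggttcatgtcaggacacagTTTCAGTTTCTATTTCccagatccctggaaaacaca

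The stretches of Ifit3 and Ifit3b were identical over all 84 bases, and those of Igtp and Irgm2 over 48 of 50. In Isg15 the motif occurred 3 times with shared letters, and in Bst2 and Gbp3 2 times. Over the set there were 31 occurrences with a median position of -59. Of these 26 began before the transcription start, 17 of them within the 100 bases before it. TTCNNNGAA, the core of the gamma-activated site, was present on either strand in 10 of 39 genes (25.6%), against 9.55% of all genes with a window. The response element core was present in 16 of the 33 genes with a window that were higher in LT-HSCs (48.5%) and in 4 of the other 6 (66.7%). The median log2 change against GMPs was 1.94 in genes with it and 1.53 in those without. Among tested genes outside all interferon lists, 38.7% of 333 genes with the motif and 35.9% of 9404 without it were higher in LT-HSCs.

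Most of the set stood at a higher level in LT-HSCs than in GMPs. Of the 51 genes, 43 were higher in LT-HSCs, 1, Ly6e, was lower, and 7 did not pass the test (edgeR quasi-likelihood test, Benjamini-Hochberg adjusted p under 0.05). Over all genes tested 32.5% were higher and 29.9% lower. The log2 change had a median of 1.84 over the set and 0.03 over all genes, and it exceeded 1 in 39 of the 43, which 19.6% of all genes reached. In linear terms the 43 ran from 1.45-fold for Sp100 to 60.9-fold for Ifit3. In 42 genes every LT-HSC library stood above every GMP library, against 25% of all genes, and in 1 every LT-HSC library stood below, against 23%. Summed over the set, levels were 2665 to 3160 CPM in EMCN+ LT-HSCs, 2399 to 2782 CPM in EMCN- LT-HSCs and 1139 to 1344 CPM in GMPs.

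The scale bears on these signs. Scaled to the total count in place of TMM, the median of all genes moved to a log2 change of 0.81 and that of the set to 2.62, and all 51 were then positive. The 43 genes called higher passed the test in that direction in all 20 alternatives, while each of the 7 that did not pass was called with total-count scaling. That scaling called 9063 of all 14915 genes higher in LT-HSCs and 1907 lower.

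**Figure D1:**
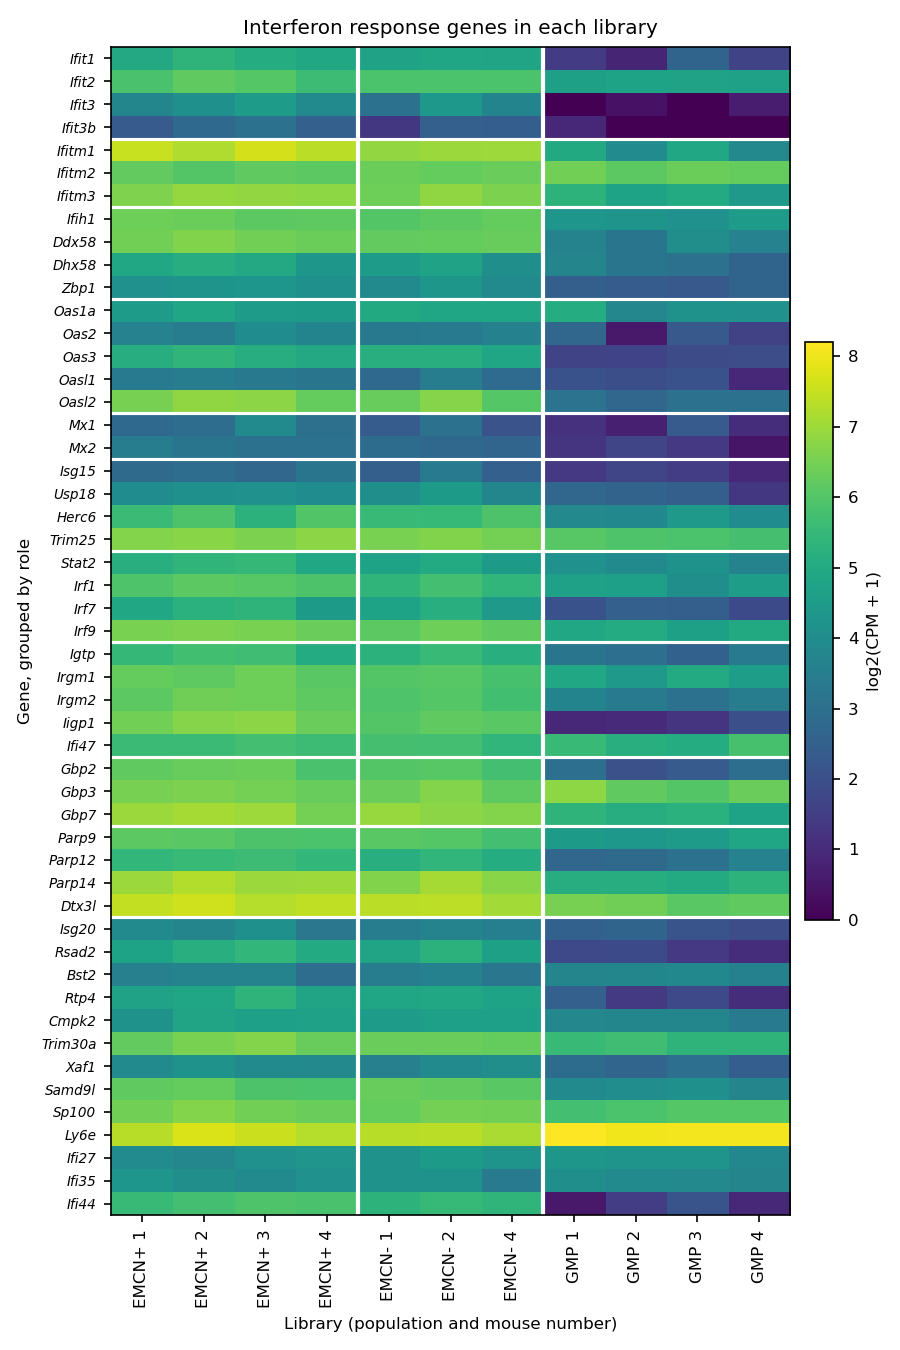
Level of each of the 51 genes (vertical axis, grouped by role) in each of the 11 libraries (horizontal axis, population and mouse number), with colour for log2(CPM + 1). Most genes are darker, that is lower, in the 4 GMP libraries, whose summed level was 1139 to 1344 CPM against 2399 to 3160 CPM in the LT-HSC libraries, and Ly6e is brighter there.

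The genes of the IFIT family, whose products bind viral RNA ends, were all higher in LT-HSCs (4 of 4), with the widest gap at Ifit3. In this and the following sentences libraries are given in the order of mice 1 to 4 (1, 2 and 4 for EMCN-). Ifit3 stood at 12.6, 16.5, 21.6 and 14.3 CPM in EMCN+ LT-HSCs, 7.34, 19.5 and 12.0 in EMCN- LT-HSCs and 0, 0.326, 0 and 0.560 in GMPs. GMPs held 5 estimated counts in all, and no GMP library came near an LT-HSC library. The log2 change was 5.93 ± 0.51 (SE, adjusted p = 1.19e-08). Ifit1 stood at 29.7, 39.3, 33.0 and 29.1 CPM in EMCN+ LT-HSCs, 25.6, 27.1 and 26.8 in EMCN- LT-HSCs and 1.74, 0.816, 5.24 and 2.24 in GMPs. All LT-HSC libraries were above all GMP libraries, with a log2 change of 3.66 ± 0.29 (SE, adjusted p = 1.21e-08). Ifit3b, a close copy of Ifit3 that lies beside it on chromosome 19, gave a smaller level. Ifit3b stood at 4.07, 6.00, 7.35 and 4.69 CPM in EMCN+ LT-HSCs, 1.53, 4.68 and 4.46 in EMCN- LT-HSCs and 0.947, 0, 0 and 0 in GMPs. All 6 GMP counts came from mouse 1, and the log2 change was 4.03 ± 0.71 (SE, adjusted p = 6.04e-05). Without that library GMPs held 0 counts of Ifit3b, and the fitted log2 change, then set by the prior count, was 8.03. Reads that fit both copies cannot be assigned with certainty, so the split between Ifit3 and Ifit3b is uncertain. Ifit2 had a mean of 59.5 ± 7.41 CPM (SD, n = 7 libraries from 4 mice) in LT-HSCs and 25.2 ± 0.644 (n = 4) in GMPs. Its log2 change was the smallest of the family, at 1.24 ± 0.11 (SE, adjusted p = 6.07e-09).

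The 3 IFITM genes encode small membrane proteins that block virus entry, and they lie together on chromosome 7. Ifitm1 stood at 182, 148, 205 and 162 CPM in EMCN+ LT-HSCs, 116, 124 and 126 in EMCN- LT-HSCs and 30.9, 14.4, 29.1 and 13.4 in GMPs. Its log2 change was 2.77 ± 0.24 (SE, adjusted p = 2.03e-06), with every LT-HSC library at least at the 116 CPM of EMCN- mouse 1. Ifitm3 stood at 96.0, 119, 117 and 111 CPM in EMCN+ LT-HSCs, 82.6, 114 and 95.6 in EMCN- LT-HSCs and 38.2, 26.3, 31.0 and 20.1 in GMPs. The log2 change of Ifitm3 was 1.85 ± 0.15 (SE, adjusted p = 4.16e-09), without overlap. Ifitm2 stood at 74.5, 62.7, 71.6 and 70.0 CPM in EMCN+ LT-HSCs, 81.8, 74.9 and 79.2 in EMCN- LT-HSCs and 86.0, 68.7, 81.3 and 76.3 in GMPs. Ifitm2 overlapped between LT-HSCs and GMPs, and its log2 change of -0.09 ± 0.09 (SE, adjusted p = 0.407) did not pass, turning to 0.03 with upper-quartile factors and to 0.69 with total-count scaling. Per kilobase of exon, Ifitm3, Ifitm1 and Ifitm2 were the 3 highest of the set in LT-HSCs, at means of 154.8, 138.7 and 112.3 CPM per kb, followed by Ly6e at 44.4 and Dtx3l at 28.7. In GMPs the order was Ifitm2 at 119.2, Ly6e at 72.5, Ifitm3 at 42.6, Gbp3 at 24.9 and Ifitm1 at 20.1 CPM per kb. Mx1, Mx2 and Ifit3b had the lowest levels per kilobase in LT-HSCs, at 1.83, 2.00 and 2.34.

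The sensors of foreign nucleic acid were higher in LT-HSCs in 4 of 4 genes. Ddx58 stood at 87.7, 98.5, 86.7 and 80.3 CPM in EMCN+ LT-HSCs, 73.3, 75.1 and 78.0 in EMCN- LT-HSCs and 11.7, 8.16, 15.7 and 11.4 in GMPs. Ddx58, which encodes the RNA helicase RIG-I, did not overlap and had a log2 change of 2.83 ± 0.14 (SE, adjusted p = 3.17e-13). Ifih1 stood at 82.1, 81.9, 69.8 and 70.2 CPM in EMCN+ LT-HSCs, 63.3, 69.4 and 75.2 in EMCN- LT-HSCs and 18.8, 18.1, 16.6 and 22.2 in GMPs. Ifih1, which encodes the related helicase MDA5, had a log2 change of 1.95 ± 0.11 (SE, adjusted p = 4.55e-12). Dhx58, for the helicase LGP2, and Zbp1, for a sensor of Z-form nucleic acid, had log2 changes of 1.58 ± 0.22 and 1.90 ± 0.19.

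The OAS genes encode enzymes that make oligoadenylates in response to double-stranded RNA, and their inactive relatives, and 4 of 5 were higher. Oas3 stood at 33.5, 40.2, 33.9 and 29.7 CPM in EMCN+ LT-HSCs, 34.7, 34.9 and 28.0 in EMCN- LT-HSCs and 2.21, 2.12, 2.73 and 2.80 in GMPs. Oasl2 stood at 90.7, 113, 108 and 76.0 CPM in EMCN+ LT-HSCs, 77.4, 103 and 65.1 in EMCN- LT-HSCs and 7.73, 5.55, 7.51 and 7.28 in GMPs. In both the GMP libraries stood far below the LT-HSC libraries, with log2 changes of 3.78 ± 0.18 (SE, adjusted p = 1.60e-13) for Oas3 and 3.69 ± 0.17 (SE, adjusted p = 3.85e-13) for Oasl2. Oas2 and Oasl1 changed by 1.88 ± 0.38 and 1.71 ± 0.30. Oas1a overlapped, at a mean of 25.6 ± 3.69 CPM (n = 7) in LT-HSCs and 19.9 ± 8.74 (n = 4) in GMPs, and its log2 change of 0.35 ± 0.20 (SE, adjusted p = 0.129) did not pass.

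Both MX genes, for dynamin-like GTPases that block virus replication, were low and higher in LT-HSCs. Mx2 stood at 9.93, 8.16, 7.57 and 7.43 CPM in EMCN+ LT-HSCs, 6.43, 5.65 and 5.40 in EMCN- LT-HSCs and 1.42, 2.29, 1.59 and 0.373 in GMPs. Mx1 stood at 5.96, 6.70, 13.7 and 7.23 CPM in EMCN+ LT-HSCs, 4.28, 7.43 and 3.29 in EMCN- LT-HSCs and 1.26, 0.653, 4.10 and 1.12 in GMPs. Mx2 did not overlap and changed by 2.31 ± 0.34 (SE, adjusted p = 5.72e-06). Mx1 changed by 1.98 ± 0.44 (SE, adjusted p = 0.000692) although GMP mouse 3 lay inside the LT-HSC range, the one gene of the 43 with such an overlap. Laboratory strains are known to carry a defective Mx1 protein, which RNA levels do not show. The annotation lists Mx2 as a polymorphic pseudogene, and its RNA level does not show whether a working protein is made.

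The ISG15 system attaches the ubiquitin-like protein ISG15 to other proteins or removes it, and all 4 genes were higher. Isg15 stood at 6.16, 6.55, 5.46 and 8.01 CPM in EMCN+ LT-HSCs, 4.59, 9.53 and 4.70 in EMCN- LT-HSCs and 1.58, 2.29, 1.82 and 0.933 in GMPs. Usp18 stood at 14.9, 16.2, 16.6 and 14.8 CPM in EMCN+ LT-HSCs, 15.9, 21.3 and 12.4 in EMCN- LT-HSCs and 5.52, 5.06, 4.55 and 1.49 in GMPs. Usp18 encodes the protease that removes ISG15 and a brake on the type I receptor. Neither gene overlapped, with log2 changes of 1.94 ± 0.34 (SE, adjusted p = 4.12e-05) for Isg15 and 1.94 ± 0.26 (SE, adjusted p = 1.31e-06) for Usp18. Herc6, for the mouse ISG15 ligase, and Trim25, for a ubiquitin ligase that acts on RIG-I, changed by 1.72 ± 0.16 and 0.73 ± 0.09.

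The 4 transcription factors of the set were higher in LT-HSCs. Irf7 stood at 29.1, 37.0, 39.8 and 21.1 CPM in EMCN+ LT-HSCs, 26.2, 34.9 and 20.2 in EMCN- LT-HSCs and 3.15, 4.73, 4.55 and 2.61 in GMPs. Irf9 stood at 93.4, 96.4, 93.6 and 79.9 CPM in EMCN+ LT-HSCs, 69.2, 83.2 and 72.8 in EMCN- LT-HSCs and 28.9, 32.1, 24.4 and 30.4 in GMPs. Irf7, a factor that drives interferon genes, changed by 2.99 ± 0.24 (SE, adjusted p = 1.85e-09), and Irf9, the DNA-binding partner of STAT2, by 1.53 ± 0.11 (SE, adjusted p = 7.43e-11). No library overlapped for either. In the annotation Irf9 overlaps Rnf31 on the same strand (1634 counts over all libraries, against 5499 for Irf9) and Irf7 overlaps Phrf1 on the opposite strand (7113 against 1845), so reads could be assigned to the wrong gene of each pair. Irf1 and Stat2 changed by 1.33 ± 0.13 and 1.09 ± 0.15.

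Among the immunity-related GTPases, which act on vacuoles that hold intracellular microbes, 4 of 5 were higher. Iigp1 stood at 86.4, 103, 109.6 and 80.1 CPM in EMCN+ LT-HSCs, 62.6, 72.0 and 68.1 in EMCN- LT-HSCs and 0.947, 0.979, 1.37 and 2.99 in GMPs. Iigp1 was near the level of a few counts in GMPs, with 34 estimated counts over 4 libraries, and its log2 change was 5.72 ± 0.22 (SE, adjusted p = 1.29e-14). Irgm2 stood at 69.7, 84.9, 82.3 and 71.3 CPM in EMCN+ LT-HSCs, 60.3, 65.2 and 51.9 in EMCN- LT-HSCs and 12.0, 9.47, 7.51 and 9.89 in GMPs. Irgm2 changed by 2.81 ± 0.14 (SE, adjusted p = 2.38e-13), its neighbour Igtp by 2.51 ± 0.18, and Irgm1, elsewhere on chromosome 11, by 1.41 ± 0.12. In the annotation Igtp and Irgm2 overlap on the same strand, so reads could be split between them. Ifi47 overlapped between the populations, at 49.0 ± 4.51 and 41.7 ± 10.3 CPM, and its log2 change of 0.23 ± 0.13 (SE, adjusted p = 0.131) did not pass.

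The guanylate-binding proteins, GTPases that coat microbial vacuoles, were higher in 2 of 3. Gbp2 stood at 72.7, 77.8, 80.8 and 56.3 CPM in EMCN+ LT-HSCs, 62.7, 66.4 and 53.1 in EMCN- LT-HSCs and 6.94, 3.10, 4.10 and 6.72 in GMPs. Gbp7 stood at 125, 137, 128 and 89.3 CPM in EMCN+ LT-HSCs, 121, 108 and 101 in EMCN- LT-HSCs and 39.8, 33.5, 36.4 and 25.8 in GMPs. Gbp2 changed by 3.67 ± 0.19 (SE, adjusted p = 3.54e-12) and Gbp7 by 1.77 ± 0.13 (SE, adjusted p = 4.37e-10), both without overlap. Gbp3, beside them on chromosome 3, stood at 86.0 ± 10.8 CPM (n = 7) in LT-HSCs and 81.4 ± 21.2 (n = 4) in GMPs, with a log2 change of 0.08 ± 0.14 (SE, adjusted p = 0.646) that did not pass.

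The PARP genes and Dtx3l encode ADP-ribosyltransferases and a ubiquitin ligase that partners PARP9, and 4 of 4 were higher. Parp12 stood at 42.3, 45.8, 48.2 and 42.4 CPM in EMCN+ LT-HSCs, 34.4, 41.2 and 32.9 in EMCN- LT-HSCs and 5.52, 6.20, 7.51 and 11.4 in GMPs. Parp14 stood at 123, 151, 124 and 128 CPM in EMCN+ LT-HSCs, 98.8, 136 and 105 in EMCN- LT-HSCs and 33.8, 33.8, 31.2 and 38.8 in GMPs. Neither overlapped, with log2 changes of 2.43 ± 0.17 (SE, adjusted p = 7.44e-11) for Parp12 and 1.84 ± 0.11 (SE, adjusted p = 9.62e-12) for Parp14. Parp9 and Dtx3l, which share a promoter region on opposite strands, changed by 1.48 ± 0.12 and 1.07 ± 0.10.

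Of the 13 remaining effectors, 9 were higher and 1 lower. Ifi44 stood at 45.2, 53.1, 60.6 and 56.1 CPM in EMCN+ LT-HSCs, 38.2, 44.1 and 40.6 in EMCN- LT-HSCs and 0.473, 1.79, 3.42 and 0.933 in GMPs. Rsad2 stood at 26.2, 34.0, 41.7 and 31.5 CPM in EMCN+ LT-HSCs, 26.5, 37.9 and 24.4 in EMCN- LT-HSCs and 2.52, 2.61, 1.59 and 1.12 in GMPs. Ifi44, an antiviral gene, changed by 4.93 ± 0.27 (SE, adjusted p = 4.02e-11), and Rsad2, for the radical SAM enzyme viperin, by 3.97 ± 0.24 (SE, adjusted p = 6.26e-12). Rtp4 changed by 3.49 ± 0.27, Samd9l, a restrictor of translation and of cell growth, by 2.26 ± 0.12, and the nuclease gene Isg20 by 1.53 ± 0.24. The smallest changes that passed were 1.28 ± 0.20 for Xaf1, 0.95 ± 0.15 for the mitochondrial nucleotide kinase gene Cmpk2, 0.92 ± 0.11 for Trim30a and 0.53 ± 0.10 for Sp100, a nuclear body component.

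Ly6e stood at 158, 214, 187 and 157 CPM in EMCN+ LT-HSCs, 158, 162 and 142 in EMCN- LT-HSCs and 306, 259, 267 and 265 in GMPs. Ly6e, for a GPI-anchored surface protein that blocks entry of some viruses, was the one gene lower in LT-HSCs, with all 4 GMP libraries above all 7 LT-HSC libraries. Its log2 change was -0.71 ± 0.10 (SE, adjusted p = 1.39e-06), and with total-count scaling it turned to 0.07 and did not pass (adjusted p = 0.598). Bst2, for the virion tether tetherin, Ifi27 and Ifi35 overlapped and did not pass, with log2 changes of -0.28 ± 0.19 (SE, adjusted p = 0.198) for Bst2, -0.01 ± 0.15 (SE, adjusted p = 0.961) for Ifi27 and 0.17 ± 0.18 (SE, adjusted p = 0.416) for Ifi35.

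Each LT-HSC fraction gave the same count against the same 4 GMP libraries. In EMCN+ LT-HSCs 43 of 51 were higher and 1 lower, against 31.9% and 29.4% of all genes. In EMCN- LT-HSCs 43 were higher and 1 lower, against 28.3% and 24.4%. The median log2 change was 1.90 in EMCN+ and 1.70 in EMCN- LT-HSCs, against 0.04 and 0.03 over all genes. Ifit3 stood at 6.07 ± 0.52 and 5.74 ± 0.55, Iigp1 at 5.93 ± 0.22 and 5.44 ± 0.23, Ifi44 at 5.10 ± 0.28 and 4.71 ± 0.29, and Irf1 at 1.55 ± 0.14 and 1.03 ± 0.15 (log2 change ± SE). Mx1 in EMCN- LT-HSCs, at a log2 change of 1.56 ± 0.51, lost its call when EMCN- mouse 2 was left out (1.14, adjusted p = 0.111). Both comparisons use the same GMP libraries, so the values are not independent.

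**Figure D2:**
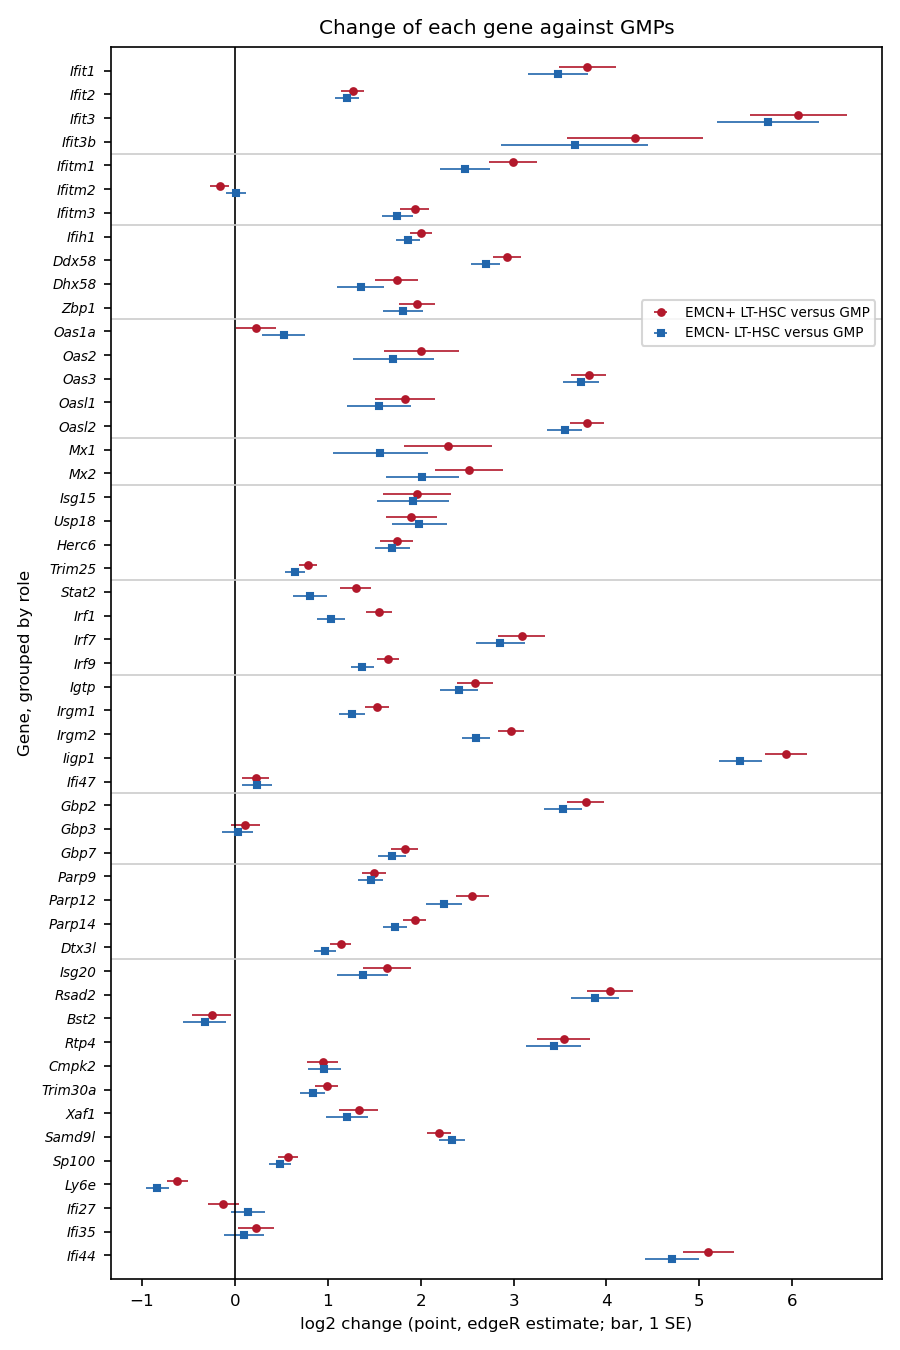
Log2 change of each gene (vertical axis, grouped by role) in EMCN+ (circles) and EMCN- (squares) LT-HSCs against GMPs, with bars of 1 SE. Most points lie to the right of 0, from 0.48 for Sp100 in EMCN- to 6.07 for Ifit3 in EMCN+ LT-HSCs among the genes called higher, and Ly6e lies to the left in both.

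Markers of other cell types moved with the LT-HSC to GMP comparison in both directions. Of the 7 plasmacytoid dendritic cell markers, Bcl11a and Runx2, which are also known from stem and progenitor cells, made up most of sums of 284 to 365 CPM in EMCN+ LT-HSCs, 278 to 350 in EMCN- LT-HSCs and 97.4 to 131 in GMPs. Of the 3 that were tested 2 were called higher in LT-HSCs and 1 was called lower, at a log2 change of -4.01. Cox6a2 was at 0 in all LT-HSC libraries, Ccr9 and Klk1 were at 0 in EMCN- LT-HSCs, and Klk1 was at 0 in GMPs. The 8 monocyte and macrophage markers summed to 7.88 to 14.6, 11.3 to 17.3 and 147 to 182 CPM in the same order, and the 10 endothelial markers to 121 to 125, 87.2 to 106 and 66.3 to 83.5 CPM, with Sox17 at 0 in EMCN- LT-HSCs and Cdh5 and Sox17 at 0 in GMPs. The 7 megakaryocyte and platelet markers summed to 135 to 205, 116 to 147 and 11.1 to 24.3 CPM, with Ppbp and Gp1bb at 0 in GMPs, and all 4 that were tested (Pf4, Itga2b, Gp9 and Vwf) were called higher in LT-HSCs. The 6 neutrophil markers summed to 1.39 to 2.35, 0.705 to 2.75 and 115 to 520 CPM, with Retnlg at 0 in EMCN+ LT-HSCs and all 5 that were tested called lower in LT-HSCs. Erythroid markers (6 in the table) summed to 14.5 to 19.5, 7.80 to 10.8 and 15.6 to 85.0 CPM, with Car1 at 0 in EMCN+ LT-HSCs and 4 of 5 called lower in LT-HSCs. The 5 B cell markers summed to 7.82 to 11.6, 6.58 to 14.1 and 18.9 to 28.5 CPM, with Cd79a at 0 in EMCN- LT-HSCs. T and NK cell markers (5 in the table) summed to 4.39 to 6.13, 2.35 to 2.45 and 0.683 to 2.21 CPM, with Cd3e and Ncr1 at 0 in every library. Their part in the result was not tested.

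Between EMCN+ and EMCN- LT-HSCs the differences were small and mostly of 1 sign. None of the 51 genes passed the test, against 1.96% of all genes tested, while DESeq2 called 2, Irf1 and Iigp1, and limma-voom 0. Of all 14915 genes DESeq2 called 203 higher and 248 lower. At an unadjusted p under 0.05 there were 5 of 51, Irf1, Iigp1, Irgm2, Stat2 and Irf9, all higher in EMCN+, against 13.9% of all genes. In 44 of 51 the estimate was above 0, against 50% of all genes, and the median log2 difference was 0.17 against 0.00. Over the alternatives that count ran from 38, without EMCN- mouse 4, to 47, with total-count scaling. The genes also varied together by mouse, as described below, so their signs are not independent. In 24 genes EMCN+ exceeded EMCN- in each of the 3 mice with both libraries, against 20.5% of all genes, and in 2, Ifitm2 and Oas1a, in none of them, against 20.5%. The groups did not overlap in 10 genes that were higher, Ifit1, Ifitm1, Ddx58, Mx2, Irf1, Irgm1, Irgm2, Iigp1, Parp12 and Ifi44, against 7.25% of all genes. They did not overlap in 2 that were lower, Ifitm2 and Oas1a, against 6.99%.

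Irf1, a transcription factor of the type II interferon response that also acts without interferon, had the smallest p. Irf1 stood at 61.1, 69.4, 66.6 and 59.4 CPM in EMCN+ LT-HSCs and 40.4, 53.0 and 40.9 in EMCN- LT-HSCs. All 4 EMCN+ libraries were above all 3 EMCN- libraries, with within-mouse log2 differences of 0.59, 0.39 and 0.54 in mice 1, 2 and 4. The log2 difference was 0.52 ± 0.14 (SE, adjusted p = 0.0688) and did not pass. A fit of the 11 libraries that blocked on the mouse gave 0.57 ± 0.14, which passed (adjusted p = 0.0309), and in the 3 complete pairs with the block it was 0.49 ± 0.11 (adjusted p = 0.0112). Over 21 alternatives the estimate ran from 0.45 to 0.65 and the adjusted p from 0.0112 to 0.338, with 7 calls, all for a higher level in EMCN+.

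Iigp1 stood at 86.4, 103, 109.6 and 80.1 CPM in EMCN+ LT-HSCs and 62.6, 72.0 and 68.1 in EMCN- LT-HSCs. The groups did not overlap, and the within-mouse differences were 0.46, 0.52 and 0.23. The estimate of 0.49 ± 0.16 (SE, adjusted p = 0.131) did not pass, and it passed in 3 of 21 alternatives, among them the complete pairs with the mouse block (0.40 ± 0.10, adjusted p = 0.0226). Irgm2 stood at 69.7, 84.9, 82.3 and 71.3 CPM in EMCN+ LT-HSCs and 60.3, 65.2 and 51.9 in EMCN- LT-HSCs. Irgm2 was higher in every EMCN+ library than in any EMCN- library, and its estimate of 0.38 ± 0.13 (SE, adjusted p = 0.172) passed in none of the 21 alternatives. Ifitm1 differed by 0.52 ± 0.25 (SE, adjusted p = 0.400), and it passed in 3 alternatives, among them the 7 LT-HSC libraries alone and the complete pairs. Stat2 and Irf9, partners in one complex, differed by 0.49 ± 0.17 and 0.28 ± 0.12 and were not called in any alternative.

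The lowest estimate was that of Oas1a. Oas1a stood at 22.2, 27.4, 22.4 and 20.9 CPM in EMCN+ LT-HSCs and 30.8, 27.6 and 27.7 in EMCN- LT-HSCs. Every EMCN- library was above every EMCN+ library, but the margin between EMCN+ mouse 2 and EMCN- mouse 2 was 0.01 on the log2 scale, and the estimate of -0.30 ± 0.23 (SE, adjusted p = 0.628) did not pass. Ifitm2 differed by -0.18 ± 0.11 (SE, adjusted p = 0.510). The other estimates below 0 were those of Usp18, Ifi47, Cmpk2, Samd9l and Ifi27, none of them called. With total-count scaling 47 of the 51 estimates were above 0, and the median of all genes moved to 0.11.

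**Figure D3:**
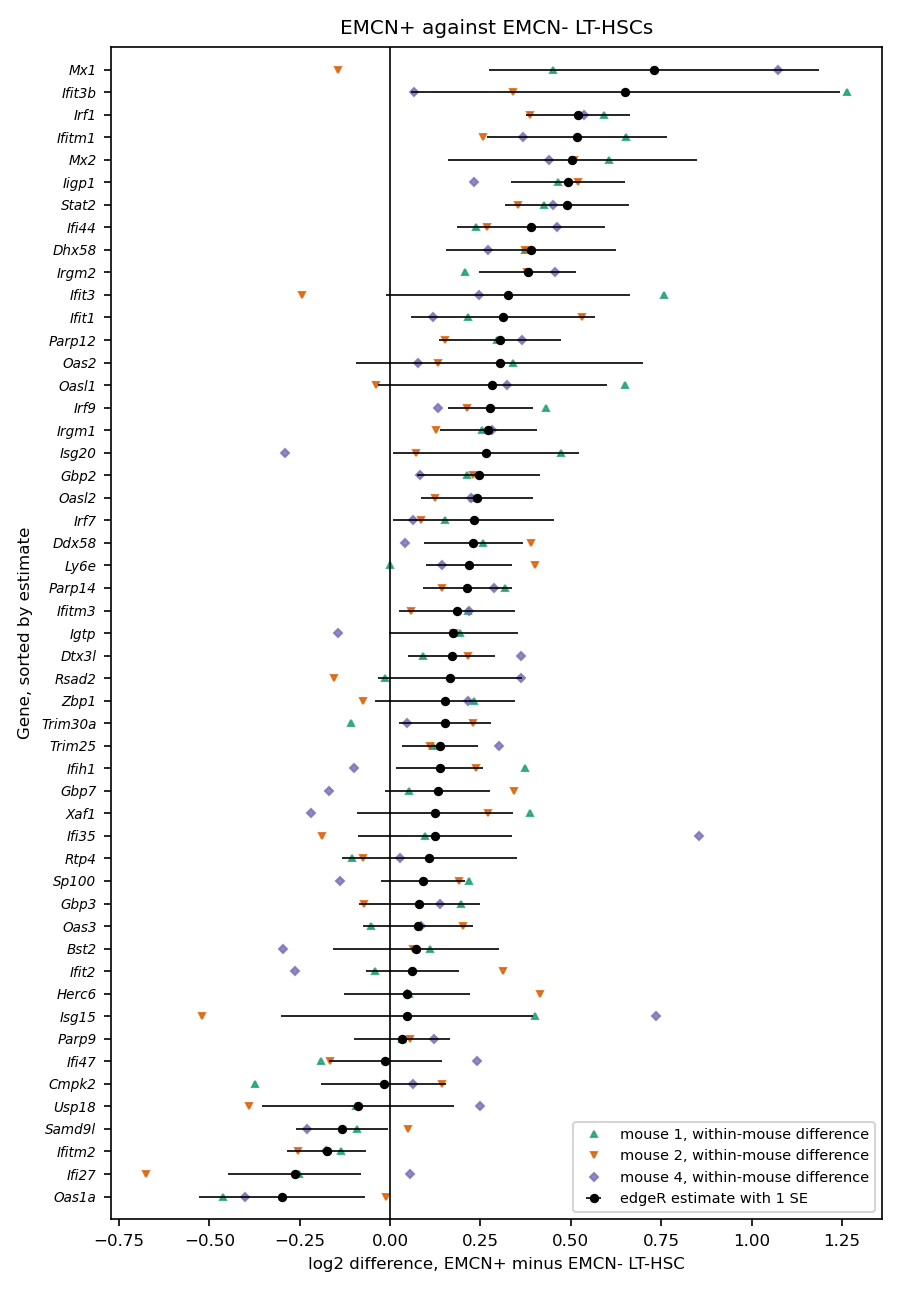
Log2 difference between EMCN+ and EMCN- LT-HSCs for each of the 51 genes (vertical axis, sorted by estimate), as the edgeR estimate with 1 SE (black) and as within-mouse differences of log2 CPM in mice 1, 2 and 4 (coloured). Black points lie to the right of 0 for 44 genes. The within-mouse points all lie above 0 in 24 genes, Irf1 among them at 0.39 to 0.59, and all below 0 in 2. In the other genes they lie on both sides of 0.

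Other values differed between the EMCN fractions as well. LT-HSC markers were higher in every EMCN+ library than in any EMCN- library (1219 to 1425 against 839 to 973 CPM summed), as were endothelial markers (121 to 125 against 87.2 to 106 CPM), a list that contains Emcn, erythroid markers (14.5 to 19.5 against 7.80 to 10.8 CPM) and T and NK cell markers (4.39 to 6.13 against 2.35 to 2.45 CPM). In the erythroid list Car1 was called lower in EMCN+ LT-HSCs. Of the megakaryocyte and platelet markers, whose sums overlapped, Vwf was called higher in EMCN+ LT-HSCs (a mean of 129 against 49.8 CPM) and Pf4 (2.99 against 15.9 CPM) and Itga2b (19.6 against 56.5 CPM) lower. Plasmacytoid dendritic cell and monocyte and macrophage sums overlapped. Small noncoding RNAs, counted as Rn7s1, Rn7s2, Rn7sk, Rpph1 and Rmrp only, took 1.64 to 3.84% of counts in EMCN+ and 4.16 to 5.25% in EMCN- LT-HSCs. Their part in the interferon gene values was not tested.

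The set also varied with the mouse. Measured as the median over the 51 genes of the deviation from the mean log2 CPM of its own population, EMCN+ LT-HSCs stood at -0.06, 0.12, 0.10 and -0.14 in mice 1 to 4, and EMCN- LT-HSCs at -0.05, 0.11 and -0.10 in mice 1, 2 and 4. In mouse 2, 39 of 51 genes in EMCN+ and 44 of 51 in EMCN- LT-HSCs were above their population's mean, and in mouse 4 only 9 and 13 were. GMPs stood at 0.16, -0.05, 0.06 and -0.14, so mouse 4 was lowest in all 3 populations, while mouse 2 was above 0 in both LT-HSC fractions and below it in GMPs. Over all genes tested the same median was within 0.01 of 0 in every library after rounding. These values describe 4 animals, and the deviations within a population add up to 0 for each gene.

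**Figure D4:**
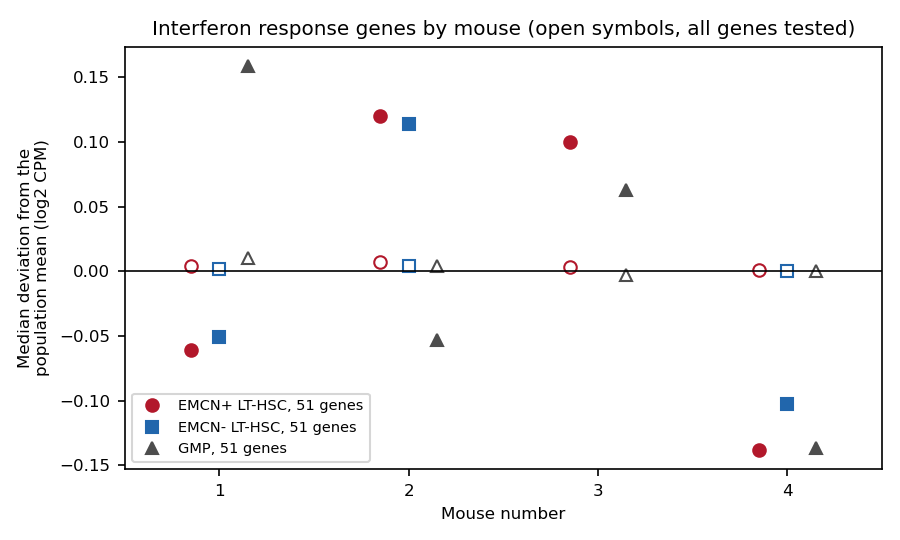
Median deviation from the population mean of log2 CPM (vertical axis) by mouse (horizontal axis) for the 51 genes in EMCN+ LT-HSCs (circles), EMCN- LT-HSCs (squares) and GMPs (triangles), with open symbols for all genes tested. Filled symbols of mouse 4 lie between -0.14 and -0.10, both LT-HSC symbols of mouse 2 lie above 0.1, and open symbols stay near 0.

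The rest of the pathway was read from a list of 119 genes that are not in the set, of which Mb21d1 and Mnda were not found by these symbols and 90 were tested. Interferons themselves were near the detection limit. Of 21 interferon genes 12 had 0 counts in every library, and the others together had 15 estimated counts in EMCN+ LT-HSCs, 10 in EMCN- LT-HSCs and 7 in GMPs. A count of 0 over the 11 libraries allows up to 0.0386 CPM, with 3 counts as the limit, for counting error only. None passed the filter, and no difference was detectable at this depth. Ifnb1 and Ifng had 0 counts throughout.

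Receptors and their kinases split by gene, with 3 of 8 higher and 4 lower in LT-HSCs, against 32.5% and 29.9% of all genes. Ifngr1, which encodes the ligand-binding chain of the interferon gamma receptor, stood at 74.2 ± 3.17 CPM (SD, n = 7) in LT-HSCs and 317 ± 41.6 (n = 4) in GMPs, a log2 change of -2.10 ± 0.09. Its partner chain gene Ifngr2 changed by -1.20 ± 0.16. For the type I receptor, Ifnar1 changed by 0.49 ± 0.13 and Ifnar2 by -0.70 ± 0.09, in opposite directions. Jak1 and Jak2 were higher, at 0.64 ± 0.11 and 0.83 ± 0.11, and Tyk2 was lower at -0.34 ± 0.12. With total-count scaling 5 were higher and 2 lower, against 9063 and 1907 of all 14915 genes. Ifnar2 then turned to 0.09 and was no longer called, and Tyk2 turned to 0.44. Tyk2 also lost its call with upper-quartile factors, without the low-count filter and without GMP mouse 4.

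Of 6 other STAT and IRF factors 2 were higher and 1 lower, against 32.5% and 29.9% of all genes. Irf2, a factor known to restrain interferon signalling in stem cells, changed by 1.83 ± 0.10 and Stat3 by 1.12 ± 0.11. Irf8, which directs monocyte and dendritic cell fate, was lower in LT-HSCs, at 3.85 ± 1.40 against 158 ± 24.6 CPM and a log2 change of -5.35 ± 0.17.

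More sensing and restraining genes were higher than lower in LT-HSCs. Over all genes tested 32.5% were higher and 29.9% lower. With total-count scaling 8 sensing and 8 restraining genes were higher and 0 lower, against 9063 and 1907 of all 14915 genes. In the cytosolic sensing pathway 5 of 9 were higher and 1 lower, with Eif2ak2 (protein kinase R) at 1.20 ± 0.12, Adar (an RNA-editing enzyme) at 1.04 ± 0.11 and Mavs (the adaptor of RIG-I and MDA5) at 0.81 ± 0.17. Ikbke, for a kinase that activates IRF factors, was lower at -0.56 ± 0.13, and with total-count scaling it turned to 0.23 and was not called. Of 9 brakes on interferon signalling 6 were higher and 1 lower, with the suppressors Socs3 at 2.57 ± 0.55 and Socs1 at 1.42 ± 0.35, and the corepressor genes Irf2bp1 at 1.00 ± 0.12 and Irf2bp2 at -0.94 ± 0.10, the latter no longer called with total-count scaling (-0.15). Pias1 changed by 0.52 ± 0.12. Ptpn6 and Usp15, the smallest of the 6, each lost their call when 1 library was left out, Ptpn6 without EMCN- mouse 2, GMP mouse 3 or GMP mouse 4 and Usp15 without GMP mouse 2.

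**Figure D5:**
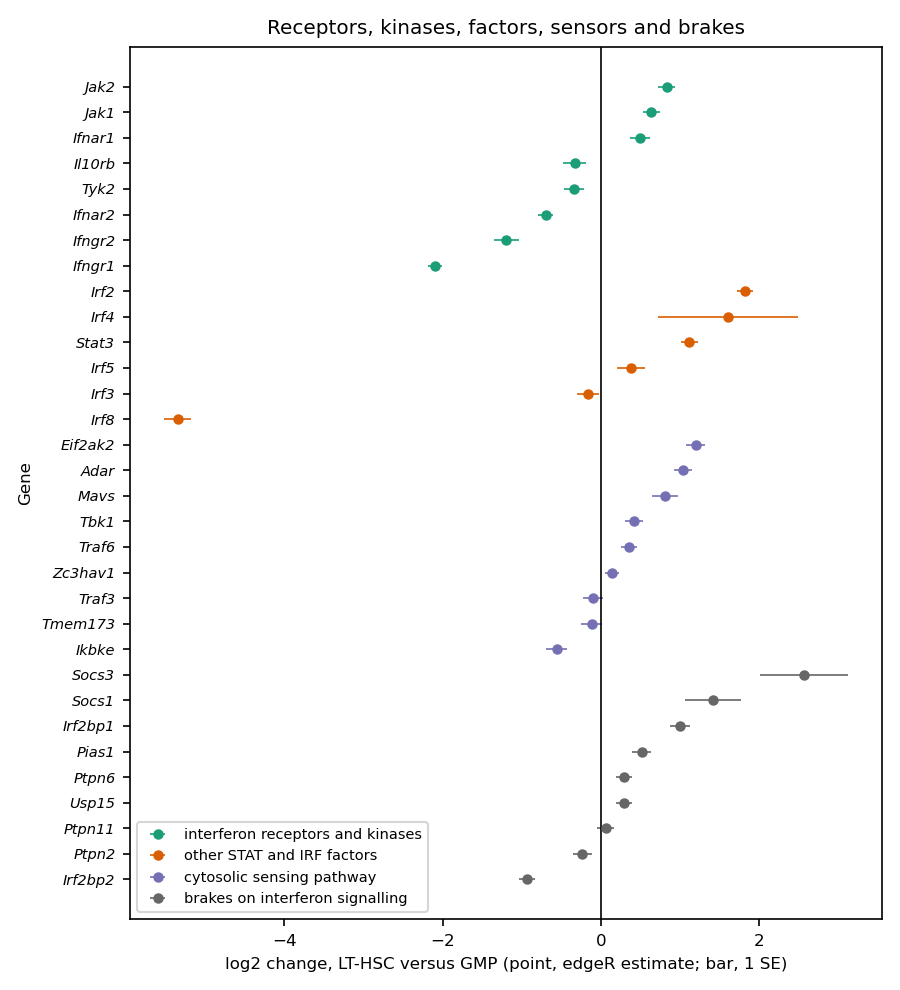
Log2 change between LT-HSCs and GMPs (horizontal axis, edgeR estimate with 1 SE) of 32 tested receptor, kinase, transcription factor, sensor and brake genes (vertical axis) that are not among the 51. Socs3 lies farthest to the right at 2.57 and Irf8 farthest to the left at -5.35, and receptor and kinase genes lie on both sides of 0.

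A further 58 interferon-inducible genes were tested, and 41 were higher and 11 lower, with a median log2 change of 1.51. Over all genes 32.5% were higher and 29.9% lower, with a median of 0.03. With total-count scaling 47 of the 58 were higher and 4 lower, against 9063 and 1907 of all 14915 genes. Uba7 and Ube2l6, the activating and conjugating enzymes for ISG15, were higher, at 2.39 ± 0.12 and 2.99 ± 0.18, as were Ddx60 at 3.21 ± 0.16, Ifi203 at 2.07 ± 0.09 and Gbp5 at 2.36 ± 0.13. Gbp10 had 0 estimated counts in GMPs and 751 in LT-HSCs. With 3 counts over the GMP libraries as the limit, for counting error only, it was at least 100-fold higher in LT-HSCs. Reads of GMPs could have been assigned to close copies such as Gbp6, which that limit does not cover. The 3 immunoproteasome genes were lower, Psmb8 at -0.61 ± 0.10, Psmb9 at -0.43 ± 0.10 and Psmb10 at -0.42 ± 0.11, and all 3 turned above 0 with total-count scaling. Ifi211, Ms4a4c and Tor3a were also lower, at -4.89 ± 0.47, -4.25 ± 0.64 and -0.88 ± 0.12, and Tor3a was no longer called with total-count scaling (-0.09, adjusted p = 0.552). Ifitm6, of the IFITM family, had 0 counts in LT-HSCs and was at least 45.0-fold higher in GMPs, on the same limit. Nmi, Sp140 and Ifi27l2a each lost their call when 1 of several single libraries was left out. Ube2l6, Gbp10 and the immunoproteasome genes were chosen after their values were seen.

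In the EMCN comparison 1 of the 90 tested pathway genes was called, against 1.96% of all genes. It was Slfn2, a growth regulator of the Schlafen family. Its level was 62.5, 57.5, 74.6 and 43.4 CPM in EMCN+, 31.2, 33.1 and 23.3 in EMCN- and 19.9, 25.5, 27.6 and 23.7 in GMP libraries. EMCN+ libraries were all above EMCN- libraries, with a log2 difference of 1.02 ± 0.17 (adjusted p = 0.00402), and the call held in all 21 alternatives. In GBP genes outside the set, estimates of 0.81 to 1.20 for Gbp4, Gbp6, Gbp8, Gbp9 and Gbp10 did not pass, were picked after their values were seen, and each passed in at least 2 of the 21 alternatives. Gbp6 stood at 125, 162, 143 and 68.2 CPM in EMCN+ and 72.8, 106 and 33.1 in EMCN- LT-HSCs, with mouse 4 lowest in both. These 5 genes are close copies of each other, so counts could be split between them.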

How the data were processed

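Total RNA libraries (SMARTer stranded kit for picogram input, read pairs) were made from sorted cells, and the series' design text gives 3000 to 5000 LT-HSCs for a sample. The labels give the molecule as polyA RNA, which the kit does not select for. The deposited table holds estimated counts per gene, and the submitters' processing notes name cutadapt and Salmon. For versions, genome build, annotation, strand setting and the step from transcripts to genes nothing is given in the sources used here. All values were whole, and the estimated counts were rounded before each fit as a safeguard. Of 54347 identifiers 54094 matched GENCODE M21 (GRCm38) without the version number. That annotation gave exon lengths and overlaps.

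Genes were filtered with filterByExpr by group at a minimum count of 10. The 11 libraries were fitted together with edgeR 4.0.16 (R 4.3.3), TMM factors and a robust quasi-likelihood fit on group alone, with no block. P values were adjusted by Benjamini-Hochberg over the 14915 genes, with a threshold of 0.05. LT-HSC versus GMP weighted 7 LT-HSC libraries equally. These came from 4 mice, 3 of which gave both fractions, so n = 7 counts libraries and not independent animals. Log2 CPM used a prior count of 2. Members, lists and tests were chosen with earlier results of these data known. Some genes of the pathway and marker lists are not reported here. Values in every library are given for the 3 genes of smallest p between EMCN+ and EMCN- LT-HSCs, for up to 2 called genes per role and direction with the largest change against GMPs at a mean of at least 5 CPM, and for the IFITM genes and the Ifit3 pair. Oas1a was added after its values were seen.

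Counts of replicate libraries gave chi-square values of 8.41 to 34.9 per degree of freedom over 15 pairs, above sampling noise. The mouse number pairs libraries of the same animal. Deviations from the group means correlated at 0.198 on average in the 3 same-mouse LT-HSC pairs (0.165 to 0.223) and at -0.0657 in 9 pairs of different mice. Intervals and limits cover counting error only, since no molecular identifiers were counted. Alternatives were RLE, upper-quartile and total-count factors, DESeq2 1.42.0, limma-voom (limma 3.58.1), no filter or one of 5 CPM in at least 3 libraries, a mouse block, LT-HSC libraries alone, complete pairs, an unweighted LT-HSC mean and each library left out.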

Additional observations from a re-analysis of the deposited data

Results flagged for a closer look

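In 6 of 102 groups of 4 libraries, 1 library stood apart from the other 3, with a gap to its nearest neighbour that was large for the group's range (above the 95% critical value of Dixon's test). Chance gives about 1 such group in 20. Ifit3b stood at 0.947 CPM in GMP mouse 1 and at 0 in the other GMP libraries. Oasl1 was at 0.933 CPM in GMP mouse 4, against 2.94 to 3.19 CPM in the others. Mx1 was at 13.7 CPM in EMCN+ mouse 3, against 5.96 to 7.23 CPM. Rtp4 was at 39.2 CPM in the same library, against 25.7 to 27.4 CPM. Cmpk2 was at 9.70 CPM in GMP mouse 4, against 12.5 to 12.9 CPM. Ly6e was at 306 CPM in GMP mouse 1, against 259 to 267 CPM.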

How the results depend on the processing

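Between EMCN+ and EMCN- LT-HSCs 0 of 51 genes were called. The count was 1 with total-count scaling, 3 without a low-count filter, 1 with the 5 CPM filter, 2 with DESeq2 and 1 in the 7 LT-HSC libraries alone. It was 1 with mouse as a replicate block over the 11 libraries and 3 in the complete pairs with the block, and it ran from 0 to 1 when a library was left out (1 without GMP mouse 3). Every call among the 51 was for a higher level in EMCN+. Over all genes, 161 were called higher and 50 lower of 14915 with total-count scaling. Without the filter 236 and 293 of 33124 were called, and with the 5 CPM filter 128 and 201 of 11667. DESeq2 called 203 and 248 of 14915, and the 7 LT-HSC libraries alone gave 151 and 118 of 13717. The mouse block gave 135 and 239 of 14915, and the complete pairs 380 and 528 of 13435. Against GMPs 44 of the 51 were called, 44 to 50 over the alternatives in LT-HSCs, 44 to 50 in EMCN+ and 43 to 49 in EMCN- LT-HSCs, and the mouse block left 44 in each. Of 563 values of single named genes under alternatives, 550 kept direction and side of the threshold, 10 passed it newly (Irf1 and Iigp1) and 3 changed sign: Ly6e with total-count scaling (0.0699), and Ifitm2 with upper-quartile factors (0.0318) and total-count scaling (0.69). The cause was not tested. With total-count scaling calls over all genes were higher in LT-HSCs in 82.6% against 52.1%, and higher in EMCN+ in 76.3% against 39.2%. The EMCN comparison rests on 4 against 3 animals, with 3.63 to 5.65 M counts in the EMCN- libraries. Against GMPs the SE of the log2 change was largest in genes with few GMP counts (0.71 for Ifit3b, 0.51 for Ifit3 and 0.44 for Mx1).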
